A study of Mus musculus with 4 samples.

Results

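The genes described here are the SoxB and SoxC members of the Sox family that act in neural tissue, given by symbol as Sox1, Sox2 and Sox3 (SoxB1), Sox14 and Sox21 (SoxB2), and Sox4, Sox11 and Sox12 (SoxC). All 8 symbols were found among the 22180 genes measured, each read from the probe set naming that gene alone with the highest mean signal. Expression was measured in whole retinal aggregates collected at day 7 (2 arrays) and day 4 (2 arrays) of differentiation. All aggregates were wild type and came from 1 mouse embryonic stem cell line of 129/Ola origin, a derivative of EB5 with GFP knocked in under the Rx promoter, grown in retinal differentiation medium with matrigel. The GFP reporter was shared by both days, and the cells were not sorted for it, as far as the labels say. Whether replicate arrays came from different cultures is not stated, so the p-values reflect the spread among these 4 arrays, which may be technical.

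Sox proteins are transcription factors that bind the minor groove of DNA through an HMG box and usually act beside a partner factor, such as a POU protein. SoxB1 proteins are activators that maintain neural progenitors, and Sox2 is also a core factor of pluripotent cells, where it binds with Oct4. SoxB2 proteins are mostly repressors that share the DNA target of SoxB1, and Sox21 is known to push progenitors towards neurons. SoxC proteins act mainly as neurons are born, and in the retina Sox4 and Sox11 are needed for ganglion cells. Because whole aggregates were measured, more cells expressing a gene and more RNA per cell cannot be told apart.

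Promoter sequence is shown for 4 members because POU genes were among those that changed most between the days and because Sox21 and Sox1 had the highest differences of the 8. The windows are RefSeq's, assembly GRCm38.p6, from 250 bases before to 50 bases after the start site. Of the 8 members, 7 were in that table, and Sox3 was not. Capitals mark the octamer ATGCAAAT, a letter string bound by POU factors, and the Sox core strings ACAAAG and ACAATG, all searched on both strands. The windows shown are chr8:12395269-12395568 on the plus strand for Sox1, chr2:152397997-152398296 on the minus strand for Sox12, chr3:34649745-34650044 on the plus strand for Sox2 and chr14:118236981-118237280 on the minus strand for Sox21, each written 5′ to 3′.
Sox1: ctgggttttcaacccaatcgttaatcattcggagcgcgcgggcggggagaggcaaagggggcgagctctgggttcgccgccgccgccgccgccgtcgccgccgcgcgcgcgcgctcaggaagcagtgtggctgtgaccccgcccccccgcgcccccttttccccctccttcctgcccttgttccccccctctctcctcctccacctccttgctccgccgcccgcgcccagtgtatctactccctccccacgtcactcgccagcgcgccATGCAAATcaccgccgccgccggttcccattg
Sox12: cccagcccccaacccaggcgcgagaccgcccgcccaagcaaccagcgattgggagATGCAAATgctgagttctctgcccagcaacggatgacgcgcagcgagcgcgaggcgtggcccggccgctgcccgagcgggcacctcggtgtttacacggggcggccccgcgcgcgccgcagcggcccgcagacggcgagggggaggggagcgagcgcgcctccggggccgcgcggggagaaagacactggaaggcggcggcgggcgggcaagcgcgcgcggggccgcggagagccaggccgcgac
Sox2: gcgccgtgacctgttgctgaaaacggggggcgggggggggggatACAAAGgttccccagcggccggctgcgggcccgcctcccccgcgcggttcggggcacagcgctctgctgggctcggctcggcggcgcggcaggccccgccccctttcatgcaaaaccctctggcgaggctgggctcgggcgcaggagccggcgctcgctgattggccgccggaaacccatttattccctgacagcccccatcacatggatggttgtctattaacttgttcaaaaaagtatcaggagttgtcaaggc
Sox21: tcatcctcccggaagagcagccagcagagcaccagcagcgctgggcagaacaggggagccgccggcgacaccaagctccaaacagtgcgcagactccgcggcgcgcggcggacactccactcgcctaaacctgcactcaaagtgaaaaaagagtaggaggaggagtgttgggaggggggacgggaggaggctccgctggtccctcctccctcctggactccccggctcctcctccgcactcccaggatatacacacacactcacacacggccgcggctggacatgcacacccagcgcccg
The octamer stood in the windows of Sox1 (positions 19 to 26 after the start site) and Sox12 (-195 to -188), that is in 2 of 7 members, and 1.74% of 32851 windows in the table held it. Sox1 was called higher at day 7 and Sox12 was not called. ACAAAG stood in the Sox2 window alone (-206 to -201), where 18.7% of all windows held it, and ACAATG in 0 of 7, where 12.6% did. A further short string, CCAAT, was in 6 of 7 windows (all but that of Sox21), against 37.4% of all windows. None of these matches overlapped another. The member windows ran from 52.0% G and C (Sox4) to 76.7% (Sox12), against a median of 52.7% over the table. A match describes letters in this window only.

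At day 7 against day 4, Sox21, Sox1 and Sox3 rose 6.38-fold, 3.74-fold and 2.67-fold, and the SoxC genes and Sox2 and Sox14 were not called. limma, fitted over all 22180 genes with Benjamini-Hochberg adjustment, called 3 of 8 members higher at an adjusted p under 0.05. Over all genes it called 6.15% higher. It called 0 members lower, against 4.33% of all genes. At an unadjusted p under 0.05 from limma, 0 members were lower, against 2322 of all 22180 genes, and 2796 of all genes were higher. With 8 genes a count of 0 lies near either share for lower genes. The same shares stand behind the counts of 0 in the gene lists below. All 8 day 7 means were above their day 4 means, against 10933 of all 22180 genes. Both day 7 values lay above both day 4 values for 6 of 8 members, against 25.6% of all genes. The median log2 difference of the members was 0.58, and that of all genes was -0.0036. In mean signal over the 4 arrays all 8 members were brighter than the median gene, but Sox21 was below it on both day 4 arrays. Differences between members in the size of their change were not tested.

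**Figure D1:**
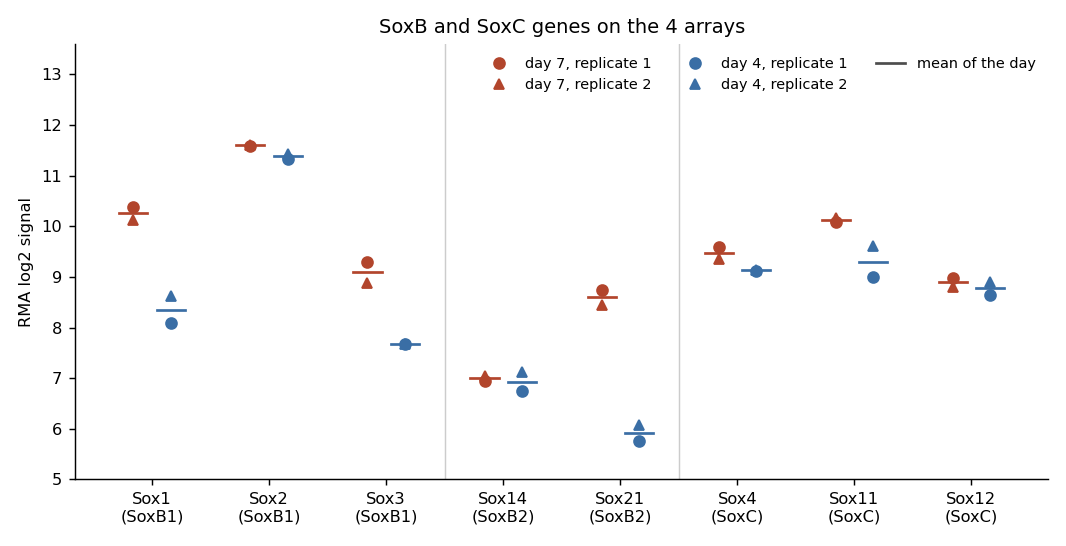
RMA log2 signal of the 8 SoxB and SoxC genes on each array, with day 7 left of day 4 for each gene, circles for replicate 1, triangles for replicate 2 and lines for the mean of the day. The days stand clearly apart for Sox1, Sox3 and Sox21, while those of Sox12 and Sox14 overlap.

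Among the SoxB1 genes, Sox1, an early marker of committed neuroectoderm, read 10.38 and 10.13 log2 at day 7, compared with 8.09 and 8.62 at day 4. The groups did not overlap, and the lowest day 7 value was well above the highest day 4 value, although the day 4 arrays differed by 0.53 log2. The log2 difference was 1.90 (SE 0.206, limma adjusted p = 0.00185), or 3.74-fold with a 95% interval of 2.67 to 5.24. Sox1 ranked 198th of 22180 genes by size of rise. With each array left out in turn the fold lay between 3.11 and 4.49 and the gene stayed called.

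Sox3, the X-linked SoxB1 gene, which is expressed through the early neural plate, read 9.30 and 8.88 in day 7 aggregates, against 7.67 and 7.68 at day 4. The day 4 arrays were nearly equal, and replicate 1 was the higher of the day 7 arrays. The log2 difference was 1.41 (SE 0.174, limma adjusted p = 0.00304), or 2.67-fold with a 95% interval of 2.00 to 3.55. Leaving out an array gave folds between 2.31 and 3.08, all called.

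Sox2, shared by pluripotent cells and neural progenitors, read 11.58 and 11.61 on the day 7 arrays, against 11.33 and 11.43 at day 4. The signal was bright on every array, with both day 7 values slightly above those of day 4. The log2 difference of 0.22 did not pass (SE 0.139, limma adjusted p = 0.443), and its 95% interval ran from a fold of 0.926 to 1.46. A change of the size seen for Sox1 or Sox3 lies outside this interval.

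**Figure D2:**
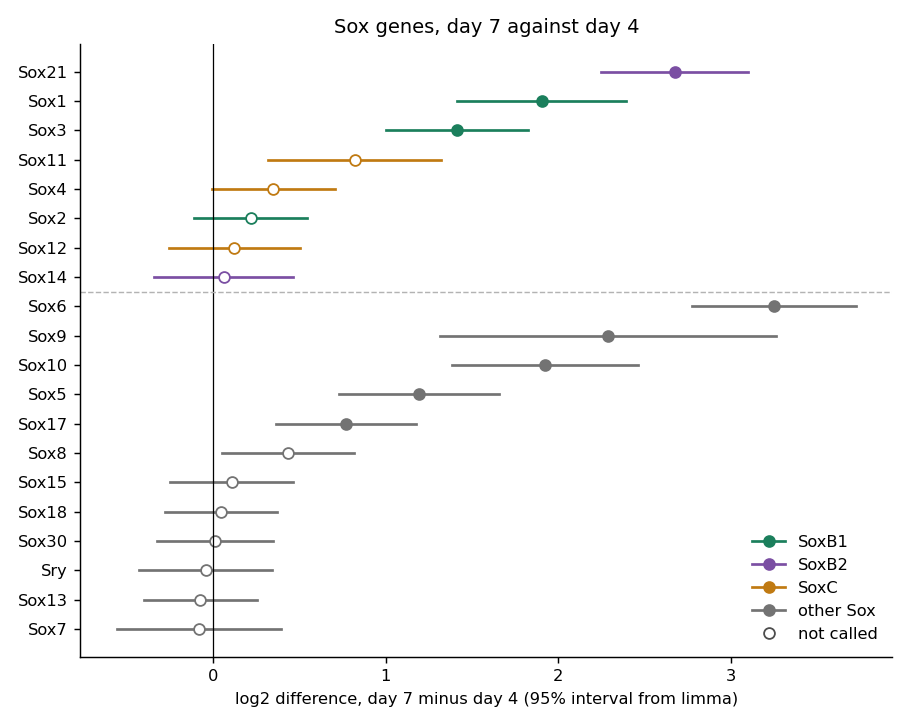
Log2 difference, day 7 minus day 4, for the 8 SoxB and SoxC genes (above the dashed line) and the other 12 Sox genes (below it), with the 95% interval from limma, filled where the adjusted p was under 0.05. The intervals of Sox21, Sox1 and Sox3 lie wholly above that of Sox2, and Sox6 has the highest difference of all Sox genes.

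Of the SoxB2 genes, Sox21 had the highest difference of the 8. It read 8.75 and 8.44 at day 7, compared with 5.76 and 6.08 at day 4. The days were far apart, with replicate gaps of 0.32 at each day. The log2 difference was 2.67 (SE 0.180, limma adjusted p = 0.00031), or 6.38-fold with a 95% interval of 4.75 to 8.57, and Sox21 ranked 81st of 22180 genes by rise. With the mean of its probe sets in place of the brightest the rise was 3.03-fold (adjusted p = 0.00341). A dimmer probe set that also names Sox21 alone (17302686, against 17309412 above) read 6.05 and 6.08 in day 7 aggregates, against 5.15 and 5.94 at day 4. Its log2 difference of 0.52 was not called when it stood for the gene (limma adjusted p = 0.28), an alternative chosen after seeing the data. The files do not place the probes of either set within the gene, so which transcript each reads was not tested.

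Sox14, which marks some interneurons and hypothalamic neurons, read 6.93 and 7.05 on the day 7 arrays, against 6.75 and 7.12 at day 4. The days overlapped, and the day 4 values spanned those of day 7. The log2 difference was 0.060 (SE 0.171, limma adjusted p = 0.901), with a 95% interval from -0.34 to 0.46.

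In the SoxC group 0 of 3 genes passed with limma, and 1 of them, Sox11, lay just short of the threshold. Sox11, which supports neuronal differentiation, read 10.08 and 10.16 at day 7, compared with 8.998 and 9.60 at day 4. Both day 7 values were above both day 4 values, and the day 4 arrays were 0.61 log2 apart, the widest gap of any member. The log2 difference was 0.82 (SE 0.212, limma adjusted p = 0.0546, unadjusted p = 0.00603), or 1.76-fold with a 95% interval of 1.25 to 2.49. Its difference was 0.52 (adjusted p = 0.123) with day 4 replicate 1 left out and 1.12 (adjusted p = 0.00581) with day 4 replicate 2 left out, and the adjusted p ranged from 0.00581 to 0.251 across the alternatives. The call of Sox11 thus changed with the array left out, and also with the modelling choice when all 4 arrays were kept.

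Sox4, which shares many roles with Sox11, read 9.60 and 9.35 in day 7 aggregates, against 9.11 and 9.14 at day 4. The day 7 values were both higher, by a margin no wider than their own gap. The log2 difference was 0.35 (SE 0.151, limma adjusted p = 0.229), with a 95% interval from -0.0098 to 0.70. Its dimmer probe set read 7.77 and 7.20 on the day 7 arrays, against 7.32 and 7.40 at day 4, which overlapped. Sox12, a weaker activator than Sox11, read 8.99 and 8.80 at day 7, compared with 8.64 and 8.91 at day 4. The days overlapped (log2 difference 0.12, SE 0.161, limma adjusted p = 0.755, 95% interval -0.26 to 0.50).

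**Figure D3:**
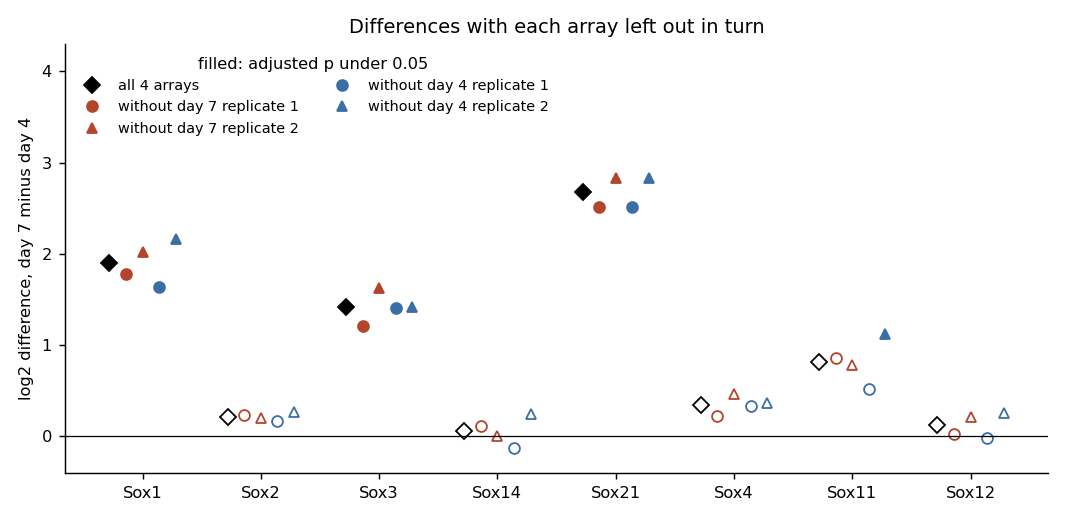
Log2 difference of each member with all 4 arrays (diamonds) and with each array left out, filled where the limma adjusted p was under 0.05. Sox1, Sox3 and Sox21 are filled in every fit, Sox11 is filled only without day 4 replicate 2, and Sox12 and Sox14 lie near 0.

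The members also differed between replicates. At day 4 all 8 were higher in replicate 2 than in replicate 1, by 0.0098 (Sox3) to 0.61 (Sox11) log2 with a median of 0.29, while 51.5% of all genes were higher in replicate 2, with a median of 0.0097. At day 7 3 of 8 were higher in replicate 2, with a median gap of -0.22, against -0.014 over all genes. Day 4 replicate 2 was thus nearer than day 4 replicate 1 to the day 7 mean for each member. Over the whole table, Pearson's r across probe sets was 0.991 for the day 7 pair, 0.986 for the day 4 pair and at most 0.978 between days.

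RNAs that span Sox genes were looked at beside them. Sox2ot is a long noncoding RNA whose locus holds Sox2, and Sox1ot is one whose locus holds Sox1, by the gene positions in the RefSeq table. The probe set of Sox2ot also names Mir1897, so it was tested only among all 41345 probe sets. It read 6.42 and 6.19 in day 7 aggregates, against 5.26 and 5.37 at day 4. Both day 7 values were higher, and the log2 difference was 0.99 (SE 0.162, limma adjusted p = 0.0411 over all probe sets). Leaving out any 1 array put its adjusted p between 0.0681 and 0.261, so that call rests on all 4 arrays. Sox1ot read 5.76 and 5.77 on the day 7 arrays, against 5.79 and 5.83 at day 4, so its values were slightly lower at day 7 while Sox1 rose. Its log2 difference of -0.043 was not called (adjusted p = 0.915).

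**Figure D4:**
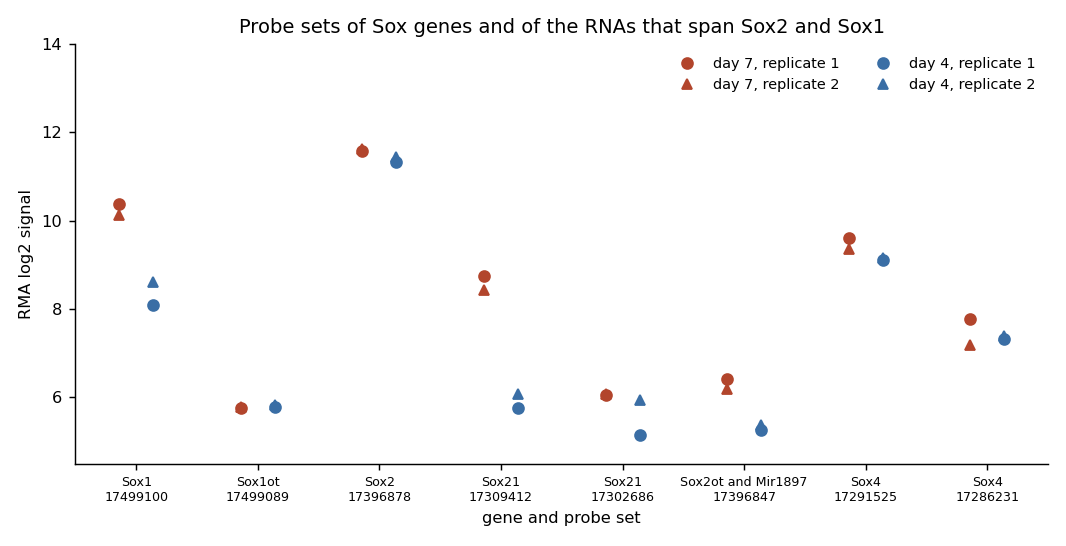
RMA log2 signal on each array for the probe sets of Sox1, Sox2, Sox4 and Sox21 and of the RNAs spanning Sox1 and Sox2, with day 7 left of day 4, circles for replicate 1 and triangles for replicate 2. The brighter Sox21 probe set separates the days, and its dimmer one reads 5.15 to 6.08 over the 4 arrays.

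The other Sox genes give the rest of the family. Of 12 measured, 5 rose, 0 fell (limma, 0 also at an unadjusted p under 0.05) and 7 were not called. Sox6, a SoxD gene of neural and other progenitors, read 8.75 and 8.26 at day 7, compared with 5.13 and 5.39 at day 4, and rose 9.49-fold (adjusted p = 0.000219). Sox9, a SoxE gene that primes progenitors for glia, read 9.38 and 9.38 in day 7 aggregates, against 6.37 and 7.83 at day 4. The day 7 arrays were equal and the day 4 arrays far apart. The rise of 4.88-fold (adjusted p = 0.0144) became 2.94-fold when day 4 replicate 1 was dropped and 8.1-fold when day 4 replicate 2 was. Dropping day 7 replicate 1 or 2 gave an adjusted p of 0.0903 or 0.0838. Sox10, the SoxE gene of neural crest, rose 3.79-fold (7.94 and 7.37 on the day 7 arrays, against 5.54 and 5.93 at day 4, adjusted p = 0.00271). Sox17, a SoxF gene of endoderm, read 7.62 and 7.76 at day 7, compared with 6.73 and 7.10 at day 4, and rose 1.71-fold (adjusted p = 0.0321). That call was lost on dropping day 4 replicate 1 (0.092), day 7 replicate 1 (0.139) or day 7 replicate 2 (0.205), and the adjusted p ranged from 0.0129 to 0.205 across the alternatives. The last of the 5 was the SoxD gene Sox5 (2.28-fold, adjusted p = 0.00999, and 0.0723 on dropping day 7 replicate 1). Without day 7 replicate 1 or 2 the count of risen genes was 2 or 3. Whether the SoxB and SoxC genes differ from the other Sox genes was not tested, and 3 of 8 stands beside 5 of 12.

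The RNA signal of partner and cofactor genes of the SoxB and SoxC factors changed in both directions. Of 9 partner and cofactor genes measured, 5 rose, 2 fell and 2 were not called. The POU genes that fell were Pou3f1 (Oct6), a factor of the epiblast and early neural plate, with 6.87 and 6.92 in day 7 aggregates, against 9.73 and 9.46 at day 4 (6.48-fold lower, adjusted p = 0.000162), and Pou5f1 (Oct4), the Sox2 partner of pluripotent cells. Pou5f1 read 6.16 and 6.37 on the day 7 arrays, against 8.37 and 7.75 at day 4 (3.47-fold lower, adjusted p = 0.00297). In contrast Pou3f3 (Brn1), a neural POU factor, read 8.69 and 8.59 at day 7, compared with 4.75 and 5.52 at day 4 (11.3-fold higher, adjusted p = 0.000361). Its relatives Pou3f2 (3.74-fold) and Pou3f4 (2.4-fold) rose as well, so that Pou3f1 was the 1 Pou3f gene of the list to fall. With day 7 replicate 1 dropped, Pou3f4 had an adjusted p of 0.066.

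Rmst, a long noncoding RNA known from human cells to bind SOX2, read 9.42 and 9.80 in day 7 aggregates, against 5.12 and 5.57 at day 4. It rose 19.2-fold (adjusted p = 9.78e-05), and 6.68-fold with the mean of its probe sets. Pax6, a partner of Sox2 in the eye, rose 11.1-fold, with 9.81 and 10.06 on the day 7 arrays, against 6.24 and 6.67 at day 4 (adjusted p = 0.000141). Otx2, which is known in frogs to act with Sox2 on the Rax gene, read 10.25 and 10.55 at day 7, compared with 10.86 and 11.03 at day 4. Both day 7 values were lower, and the log2 difference of -0.54 was not called (adjusted p = 0.0898, 0.0132 to 0.463 over the alternatives).

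**Figure D5:**
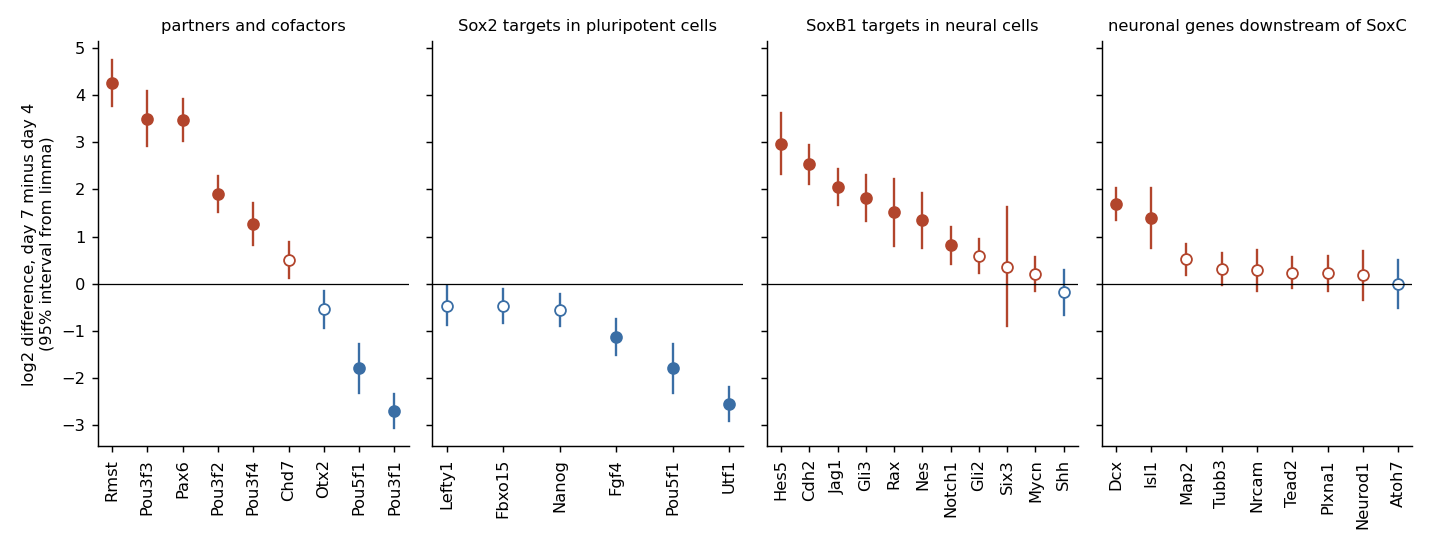
Log2 difference, day 7 minus day 4, with 95% intervals from limma, for partners and cofactors, Sox2 targets in pluripotent cells, SoxB1 targets in neural cells and neuronal genes downstream of SoxC, filled where the adjusted p was under 0.05. Called Sox2 targets of pluripotent cells lie below 0 and called neural targets above it.

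Genes that Sox2 controls with Oct4 in pluripotent cells fell in 3 of 6 cases, with 0 higher (limma, 0 also at an unadjusted p under 0.05) and 3 not called. Utf1, a chromatin gene of pluripotent cells, read 9.16 and 9.42 in day 7 aggregates, against 11.88 and 11.81 at day 4 (5.86-fold lower, adjusted p = 0.00019). Fgf4, a growth factor gene with a joint Sox2 and Oct4 enhancer, was 2.19-fold lower (adjusted p = 0.00624, range 0.000662 to 0.065 across the alternatives, the highest on dropping day 7 replicate 1). Pou5f1 itself is in this list. All 6 day 7 means lay below those of day 4, against 11247 of all 22180 genes, with a median log2 difference of -0.85.

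Of 11 genes known as SoxB1 targets in neural cells, 7 rose, 0 fell (limma, 0 also at an unadjusted p under 0.05) and 4 were not called, with a median log2 difference of 1.35. Over all genes 6.15% were called higher. The count of risen targets differed with any array left out. Hes5, a Notch effector that holds progenitors back from differentiation, read 9.76 and 9.08 on the day 7 arrays, against 6.15 and 6.74 at day 4 (7.85-fold higher, adjusted p = 0.00106), and the fold was 2.92 with the mean of its probe sets. Cdh2, the gene of N-cadherin, read 11.90 and 11.85 at day 7, compared with 9.15 and 9.55 at day 4 (5.78-fold higher, adjusted p = 0.000325). The Notch ligand gene Jag1 rose 4.13-fold (adjusted p = 0.000579).

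Rax, the eye field gene, whose promoter also drives the GFP of these cells, read 7.62 and 8.37 in day 7 aggregates, against 6.14 and 6.82 at day 4. It rose 2.85-fold (adjusted p = 0.021, range 0.00183 to 0.119 across the alternatives). The call was lost on dropping day 4 replicate 1 (0.052) or day 7 replicate 2 (0.119). The intermediate filament gene Nes, a classic target of Sox and POU factors in neural progenitors, rose 2.54-fold (adjusted p = 0.0154, range 0.00229 to 0.104 across the alternatives, the highest on dropping day 7 replicate 1). Sox1, Sox3 and Sox21 thus changed on the same arrays as these genes, and a link between them was not tested.

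Neuronal genes downstream of SoxC rose in 2 of 9 cases, with 0 lower (limma, 0 also at an unadjusted p under 0.05) and 7 not called, and a median log2 difference of 0.28. Dcx, a microtubule gene of young neurons, read 6.21 and 6.36 on the day 7 arrays, against 4.63 and 4.55 at day 4 (3.24-fold higher, adjusted p = 0.000743). It was dim at day 4, with a mean of 4.59 beside a 25th percentile of gene level of 4.598. Among neuron markers outside this list, Ina was 3.96-fold lower at day 7 (limma adjusted p = 0.000555). Stmn2 was 1.96-fold lower (limma adjusted p = 0.0092), while Elavl4 was 2.86-fold higher (limma adjusted p = 0.00143) and Elavl3 was not called. Isl1, a LIM homeobox gene of retinal ganglion cells, read 7.41 and 6.60 at day 7, compared with 5.78 and 5.45 at day 4 (2.63-fold higher, adjusted p = 0.0186). Dropping day 7 replicate 1 gave it 0.0818, the highest of a range that began at 0.00457 across the alternatives, and left 1 of 9 genes called.

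Genes most alike to the 3 that rose, by the Euclidean distance over the 4 log2 values, were Mapkapk2 (0.333) and Nrep (0.428) for Sox1, Ror2 (0.262) and Smim19 (0.304) for Sox3, and Eya2 (0.371) and Tfap2c (0.385) for Sox21. All 6 were called higher at day 7, which follows largely from picking genes close to called ones and is no separate result. With 4 arrays many genes share such a pattern, and the values describe these arrays only.

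Markers of cell types moved between the days beside the Sox genes, and their part in the results was not tested. Some also stand in lists above, so the lists are not separate evidence. These are Nes, Hes5 and Pax6 (neural progenitor), Pou3f1 and Otx2 (primed epiblast), Dcx, Tubb3 and Map2 (neuron) and Sox17 (endoderm). Neural progenitor markers rose in 6 of 6 cases (3 without day 7 replicate 1), with a mean log2 level over the list of 10.49 to 10.68 on the day 7 arrays, against 8.60 on both day 4 arrays. Primed epiblast markers fell in 4 of 6 (7.98 to 7.99 at day 7, against 10.04 to 10.17 at day 4). Naive pluripotency markers fell in 1 of 6, Nr0b1 (list level 7.68 to 7.98 at day 7, against 7.79 to 7.91 at day 4), and in 0 without day 7 replicate 1 or 2. Neuron markers split, with 2 of 7 higher and 2 lower, or 1 lower without day 7 replicate 1 (7.93 to 7.96 at day 7, against 7.79 to 7.87 at day 4). Neural crest markers rose in 3 of 6, and Sox10 is in that list and in the Sox list (7.41 to 7.42 at day 7, against 6.20 to 6.38 at day 4). The 1 that fell, Foxd3, is also a primed epiblast marker, and its call was lost without day 4 replicate 1 (adjusted p = 0.0638), day 7 replicate 1 (0.0666) or day 7 replicate 2 (0.171).

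Endoderm markers rose in 2 of 7, Cxcr4 and Sox17 (7.94 to 8.42 at day 7, against 7.87 to 7.90 at day 4). The count was 1 without any array but day 4 replicate 2, and without day 7 replicate 2 there were also 2 that fell. Lens and placode markers, a fate in which Sox1 and Sox2 are also expressed, rose in 1 of 8, Prox1 at 1.89-fold (6.85 to 7.04 at day 7, against 6.63 to 6.82 at day 4), and in 2 without day 4 replicate 2 or 0 without day 7 replicate 1. Pigment epithelium markers rose in 2 of 6, Dct at 6.52-fold and Mitf at 2.88-fold (5.67 to 6.64 at day 7, against 5.04 to 5.07 at day 4). The call of Dct was lost without day 4 replicate 1 (adjusted p = 0.0519). Mesoderm markers rose in 1 of 5, Kdr (5.69 to 6.08 at day 7, against 5.41 to 5.62 at day 4), and Kdr was called without day 7 replicate 1 but in 0 of the 3 fits that left out another array (adjusted p = 0.0505 to 0.148). Trophoblast markers rose in 1 of 6, Tfap2c, and fell in 1, Eomes (6.31 to 6.42 at day 7, against 6.03 to 6.10 at day 4). RMA gives no value of 0, so no marker is absent by this measure.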

How the data were processed

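The values are log2 signals as the authors deposited them, a value for each probe set on each of 4 arrays. Per the submitters' processing notes, Partek 6.5 and RMA were used, and RMA corrects background, normalizes between arrays and summarises the probes. Its settings, and the genome build, are not given in the sources used here. A difference of 1 is a 2-fold difference in normalized signal, and remaining background shrinks the fold of a dim gene.

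The table held 41345 probe sets, and the platform annotation gave a single gene for 23521. For the 1082 genes with several, the one with the highest mean was kept, giving 22180 genes. limma 3.58.1 (lmFit, eBayes, R 4.3.3) fitted the day as the only term, two-sided, with 2 residual degrees of freedom and a prior of 5.07. SE and 95% intervals are limma's moderated ones, and single-gene adjusted p-values are limma's, by Benjamini-Hochberg over all genes unless said otherwise. The fit was tested on simulated data. The number of arrays limits the precision. Pou2f1, Pou4f2, Spp1, and T of the lists were not analysed here, and Sox2ot was read only from its shared probe set.

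The members and gene lists were chosen with earlier results of these data known. Named genes were all members, up to 3 risen and 3 fallen called genes of each list other than the cell type markers, 10 fixed genes, and the 2 genes nearest to each called member. Sox5, Pou3f2, Pou3f4 and the named cell type markers outside these lists were chosen after their values were seen.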

Additional observations from a re-analysis of the deposited data

How the results depend on the processing

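Apart from the fit with no variance prior, Sox1 and Sox3 kept the direction and call of their rises in 14 of 14 alternatives. Sox21 kept both in 13. For Sox1 and Sox3 the replicate block, percentile, trend and probe set alternatives left the log2 difference as it was, so direction was fixed there. For Sox21 the replicate block, percentile, trend and all-probe-set fits likewise left it at 2.67, so these do not check its direction. Sox21 stood above the 50th percentile of level (6.291) only through day 7, since its day 4 mean was 5.92. That fit therefore adds no support for its rise. With no variance prior the adjusted p was 0.253 for Sox1 (log2 difference 1.90), 0.249 for Sox3 (1.41) and 0.211 for Sox21 (2.67), so that 0 members passed (3 at an unadjusted p under 0.05) and 3 of all genes (3557 unadjusted). The dimmer probe set, chosen after seeing the data, gave Sox21 a log2 difference of 0.52 (adjusted p = 0.28). Sox11 (0.82) passed with the replicate number as a block (0.82, adjusted p = 0.0306), with arrays centred on their median (0.78, adjusted p = 0.0325), above the 25th or 50th percentile of level (0.0466 and 0.0294), and with an intensity trend without or with robust estimation (0.0132 and 0.0101). With 1 array left out its difference lay between 0.52 and 1.12, that of Sox14 between -0.13 and 0.25 and that of Sox12 between -0.013 and 0.25, and quantile normalization gave Sox14 -0.046. None of these Sox12 or Sox14 values was called. The cause of these shifts was not tested.

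All genes called numbered 2324 by limma, 887 to 2500 with 1 array left out, 1323 over all probe sets and 1078 at an adjusted p under 0.01. Leaving out an array leaves 1 sample for its day, which is then assumed to vary like the other day. The block called 2770 genes and changed the call of no member but Sox11, and Sox2ot lost its call under it (adjusted p = 0.0585 over all probe sets). Same-numbered arrays share only a number, since the labels give no shared origin, and their deviations from the day means correlated with r = 0.186 across genes. For 20 named genes other than the 8 members there were 278 alternative values, those with no variance prior left out. Of these, 257 kept direction and call, 16 lost the call, 5 gained it and 0 reversed. The replicate block, percentile, trend and all-probe-set fits left each log2 difference as it was, so direction was fixed there. The dimmer probe sets of Sox4 and Sox21 changed none of these genes. Sox6, Sox10, Rmst, Pou3f3 and Isl1 passed the higher percentile of level only through day 7, and Pou5f1 only through day 4. That fit adds no support for their changes. With no variance prior all 18 called genes of these 20 lost the call. Counts for the gene lists stayed within 1.5 times the main count in 476 of 544 cases. Many main counts were 0, and a 0 that stayed 0 is included, so this share says little about the other counts.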
